A study of Mus musculus with 12 samples.

Results

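The alpha-arrestin family was examined in the deposited expression table through 5 genes, Arrdc1, Arrdc2, Arrdc3, Arrdc4 and Txnip. The members were the rows whose gene name is, or as a joined locus includes, one of these names, and each gene matched 1 locus of the 40597 in the table. The 12 RNA libraries came from neurospheres, which are floating balls of dividing neural precursors, started from hypothalami of wild-type C57Bl/6 mice at embryonic day 14.5. At passage 3 the male and female cultures received 100 nM dexamethasone, a synthetic agonist of the glucocorticoid receptor, or ethanol vehicle, for 4 hours. The 4 groups were male vehicle, male dexamethasone, female vehicle and female dexamethasone, with 3 libraries in each. The comparison asks which alpha-arrestin transcripts differ after short glucocorticoid exposure, and whether the sexes differ in this.

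Alpha-arrestins share the arrestin fold with the beta-arrestins that switch off G protein-coupled receptors. Most carry proline-rich PPxY motifs in their tails, which recruit ubiquitin ligases of the Nedd4 family to membrane proteins and so mark these for endocytosis and sorting. Txnip is the member best known outside trafficking, since it binds reduced thioredoxin and lowers glucose uptake. Txnip and Arrdc4 are classical targets of the glucose-sensing factors MondoA and Mlx, which bind carbohydrate response elements built from paired E-box cores.

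The promoters of Arrdc2, Arrdc4 and Txnip are shown because Arrdc2 was the member that differed with dexamethasone, while Arrdc4 and Txnip moved together across the libraries. Each sequence is the 250 bases just before the first RefSeq start site on GRCm38.p6, the build of the deposited table, and all 5 members had a RefSeq entry. Capitals mark matches on either strand to the E-box CACGTG, its variant CACGAG, paired E-box cores CACGNNNNNNNCACG, the glucocorticoid receptor core ACANNNTGT, the CCAAT box and the TATA box TATAA. The letters N of a motif stay in lower case. Arrdc2 lies at chr8:70839721-70839970 on the minus strand, Arrdc4 at chr7:68749239-68749488 on the minus strand and Txnip at chr3:96557707-96557956 on the plus strand.
Arrdc2: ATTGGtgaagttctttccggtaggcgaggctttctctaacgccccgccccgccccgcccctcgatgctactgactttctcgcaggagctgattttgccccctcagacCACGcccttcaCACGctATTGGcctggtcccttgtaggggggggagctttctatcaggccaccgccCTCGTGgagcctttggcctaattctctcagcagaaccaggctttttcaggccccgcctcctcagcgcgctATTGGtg
Arrdc4: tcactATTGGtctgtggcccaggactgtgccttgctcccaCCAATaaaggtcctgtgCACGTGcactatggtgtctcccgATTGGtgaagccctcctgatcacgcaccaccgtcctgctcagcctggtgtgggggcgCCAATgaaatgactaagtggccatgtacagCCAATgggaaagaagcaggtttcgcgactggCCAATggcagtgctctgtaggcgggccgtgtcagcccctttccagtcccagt
Txnip: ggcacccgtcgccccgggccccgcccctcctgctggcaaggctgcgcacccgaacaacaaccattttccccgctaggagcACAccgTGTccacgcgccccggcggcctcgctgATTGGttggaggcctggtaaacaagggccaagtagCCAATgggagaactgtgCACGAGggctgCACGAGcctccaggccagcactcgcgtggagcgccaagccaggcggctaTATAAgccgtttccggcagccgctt

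In the Txnip promoter the variant CACGAG stood at positions -85 and -74 from the start site, and these form a paired-core match from -85 to -71. The Arrdc4 promoter held the E-box CACGTG from -193 to -188. Arrdc2 held a paired-core match from -143 to -129 and CACGAG on the opposite strand from -77 to -72. The paired cores of Arrdc2 read on as CACGCC and CACGCT, so neither is CACGTG or CACGAG, unlike those of Txnip. Arrdc1 held CACGAG 2 times on the opposite strand, from -158 to -153 and from -118 to -113. Paired cores were present in 0.511% of the 32851 RefSeq promoter windows of this length, CACGTG in 6.02% and CACGAG in 5.37%. The CACGAG and paired-core matches overlap in Txnip. The glucocorticoid receptor core ACANNNTGT, found in 5.84% of windows, matched in Txnip from -170 to -162 and in no other window of the 5 genes. The CCAAT box, found in 33.8% of windows, matched 6 times in Arrdc4, 3 times in Arrdc2, 2 times in Txnip and 1 time in Arrdc3. TATAA, found in 22.8% of windows, matched in Txnip from -25 to -21. A match describes letters in the window and shows no binding.

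**Figure D1:**
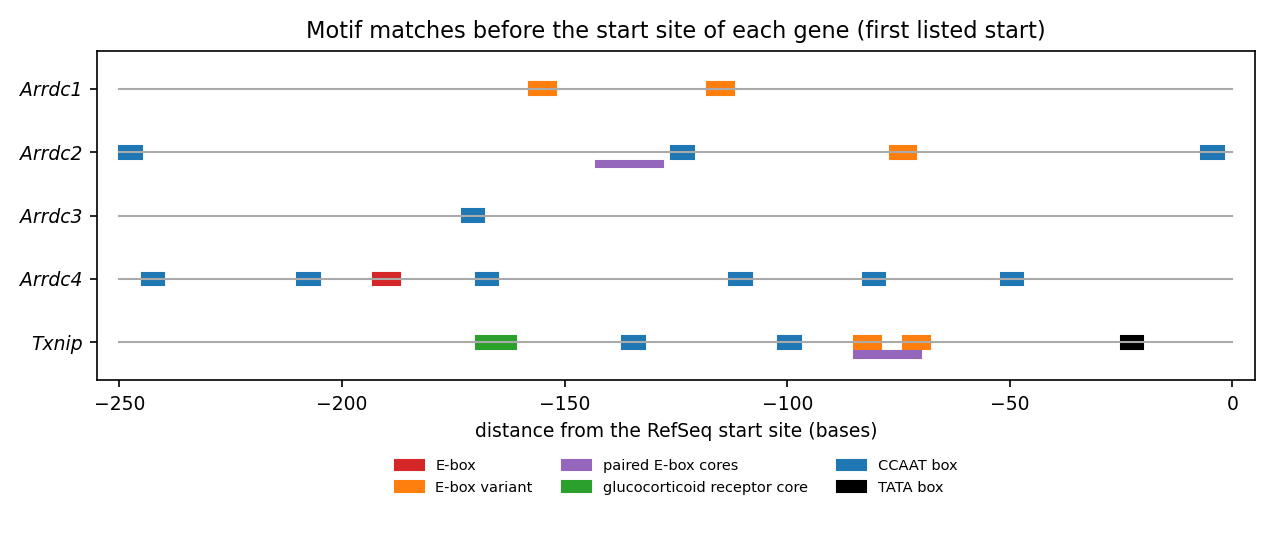
Motif matches in the 250 bases before the first RefSeq start site of each gene, plotted by distance from that start site in bases, with 1 colour per motif. Paired E-box cores are drawn below the line and appear in Arrdc2 and Txnip, and the glucocorticoid receptor core appears in Txnip.

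Library facts bear on all results that follow. Depth in reads is unknown, since the table gives FPKM, fragment abundance relative to transcript length and sequencing depth, and no counts. Unnamed loci made up 75.0% of summed FPKM in male vehicle library 3 and 53.1% in male dexamethasone library 2, against 11.6% to 38.6% in the other 10. Both male libraries numbered 2 held Xist, the RNA of the inactive X chromosome, at 3.04 FPKM with vehicle and 14.1 with dexamethasone, while the other 4 male libraries were at 0.0466 or less and female libraries at 136 to 328. Of 6 hypothalamic markers, Rax, Nkx2-1, Sim1 and Otp each averaged under 0.1 FPKM, and the Six3 locus, joined with Six3os1_2, was at 0.064 and 0.0702 FPKM in the female libraries numbered 2 against 7.45 to 50.6 elsewhere. The 8 neural stem and progenitor markers summed to 5810 to 7520 FPKM. The summed markers of microglia (0.0199 to 0.905), endothelium (0.45 to 1.83) and erythroid cells (0 to 0.71) stayed low. Mural and fibroblast markers summed to 15.9 to 44.3 FPKM, nearly all of it Acta2, which averaged 27.9. Of the rest of that list, Col1a1 averaged 0.663 FPKM, and Pdgfrb, Col1a2 and Dcn averaged under 0.1. Neuronal markers summed to 7.94 to 15.9 FPKM. In bulk RNA, fewer cells of a type and less RNA per cell cannot be told apart.

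The 5 genes differed in level by more than an order of magnitude. Averaged over the 12 libraries, Arrdc3 stood at 37.8 ± 11.6 FPKM (SD, n = 12), Txnip at 22.9 ± 14.3, Arrdc4 at 9.23 ± 3.88, Arrdc2 at 3.19 ± 1.67 and Arrdc1 at 1.25 ± 0.785. The order Arrdc3, Txnip, Arrdc4, Arrdc2, Arrdc1 held in 9 of 12 libraries. Txnip was above Arrdc3 in 2 libraries, both female number 2, and Arrdc4 was above Txnip in 1, male dexamethasone 2. The neighbours Arrdc3 and Txnip therefore overlapped, as did Txnip and Arrdc4. Arrdc4 was above Arrdc2 and Arrdc2 above Arrdc1 in 12 of 12 libraries. Arrdc5, the remaining alpha-arrestin of the mouse, was listed at 0 in every library.

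**Figure D2:**
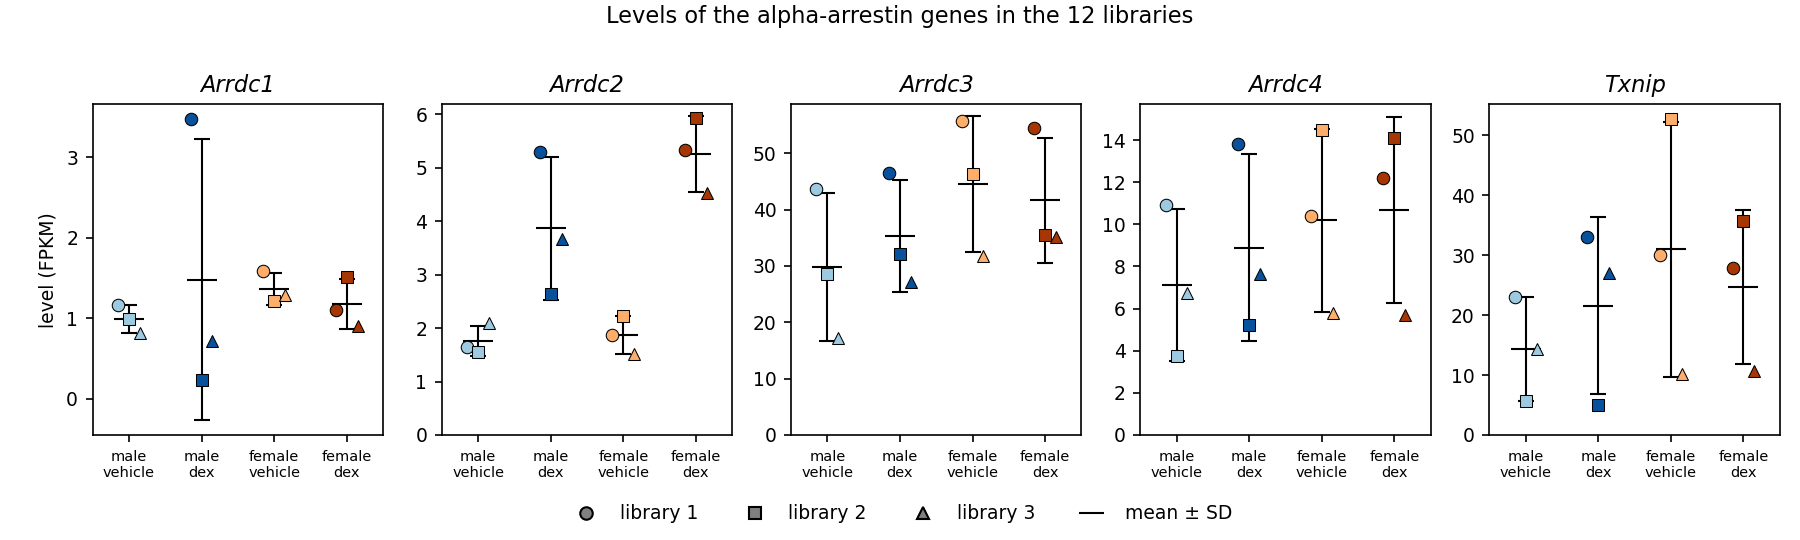
FPKM of the 5 genes in every library by group, with marker shape for the library number and a bar and whiskers for the mean ± SD of 3 libraries. Arrdc2 is between 1.52 and 2.22 FPKM in the vehicle libraries and between 2.64 and 5.93 in the dexamethasone libraries, while the other 4 genes overlap between treatments.

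Arrdc2 rose with dexamethasone. It encodes one of the less studied alpha-arrestins, with arrestin domains and PPxY motifs, and its locus spans chr8:70835155-70839720 on the minus strand (ENSMUSG00000002910, up to 8 exons). Male vehicle libraries 1, 2 and 3 held 1.64, 1.56 and 2.09 FPKM, and male dexamethasone libraries held 5.30, 2.64 and 3.66. Female vehicle libraries held 1.87, 2.22 and 1.52 FPKM, and female dexamethasone libraries 5.33, 5.93 and 4.53. The 6 treated libraries were all above the 6 vehicle libraries, and the lowest treated value was male library 2. Mean FPKM rose 2.51-fold, from 1.82 to 4.57. All treated libraries were above all vehicle libraries at 1.41% of the 14931 loci tested, and at 1 of the 5 members.

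On the log2(FPKM + 1) scale, which understates changes of low genes, the Arrdc2 difference averaged over both sexes was 0.96 (SE 0.14, 95% interval 0.64 to 1.27, limma with Benjamini-Hochberg adjustment over all loci, adjusted p = 0.00863). It ranked 85th of 14931 loci by p and 337th by signed log2 difference, counted from the largest rise. The call was made in 24 of 24 alternatives that tested it, with adjusted p between 0.00305 and 0.0466. These include the fit without both female libraries numbered 2 (0.96, adjusted p = 0.0466), without both male libraries numbered 2 (1.03, adjusted p = 0.0174), and without male vehicle library 3 and male dexamethasone library 2 (1.09, adjusted p = 0.00995). Calls were made at 1.53% of loci in either direction and 1.15% in the upward direction, and at 1 of 5 members.

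Within females the Arrdc2 effect was 1.13 (SE 0.20, 95% interval 0.69 to 1.57, limma adjusted p = 0.0461), the only member called, against 0.482% of loci. Within males it was 0.79 (SE 0.20, 95% interval 0.34 to 1.23, limma adjusted p = 0.247), and 0 of 5 members were called against 0.315% of loci. At an unadjusted p under 0.05, Arrdc2 alone of the 5 members passed in males, against 6.38% of loci. The female minus male difference was 0.34 (SE 0.28, 95% interval -0.28 to 0.97, limma adjusted p = 1.0). A difference between the sexes was thus not shown, and none of the 5 members passed the interaction test, adjusted or unadjusted, against 0.0335% of loci called and 1.47% at an unadjusted p under 0.05. The female call stands close to its threshold. It was made in 10 of 25 alternatives, with adjusted p from 0.0175 to 0.305. Among fits leaving out 1 library it held only without male dexamethasone library 1 or 2, and without any other library, male or female, adjusted p was 0.0701 to 0.201.

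The 4 loci most like Arrdc2 over the 12 libraries, by Pearson's r of log2(FPKM + 1) among 9751 named loci averaging at least 5 FPKM, were Plekhf1 (0.976), Lifr (0.975), Kcnn2 (0.963) and Mcu (0.961). Plekhf1 encodes an endosomal protein with PH and FYVE domains, and its levels were 7.89 to 11.6 FPKM with vehicle and 16.3 to 36.7 with dexamethasone. Lifr, the leukaemia inhibitory factor receptor, was at 13.9 to 17.7 and 21.3 to 28.1 FPKM. Kcnn2, a calcium-activated potassium channel, was at 1.37 to 6.32 and 8.42 to 25.6. Mcu, the pore of the mitochondrial calcium uniporter, was at 9.15 to 11.7 and 13.3 to 17.9. Each of these 4 also had all treated libraries above all vehicle libraries. The likeness covers both treatments, so it holds the treatment difference itself.

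**Figure D3:**
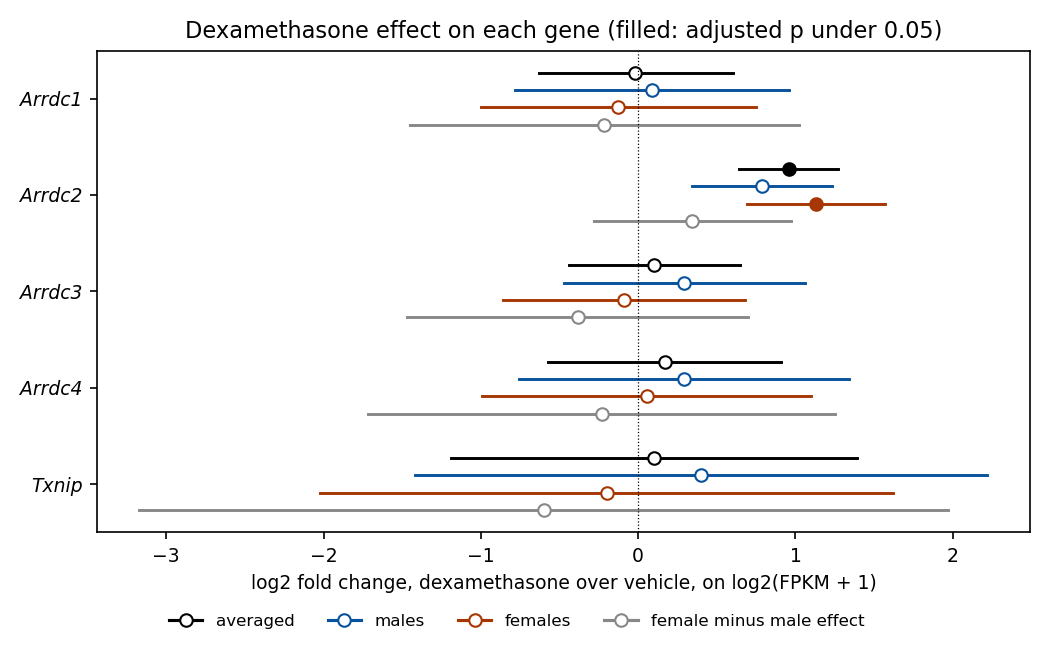
Log2 fold change of dexamethasone over vehicle on log2(FPKM + 1) for each gene, averaged over the sexes, in males, in females, and as the female minus male difference. Lines are 95% intervals from limma. Arrdc2 carries the 2 filled points, at 0.96 averaged and 1.13 in females, and the Txnip intervals are the widest.

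Txnip, the thioredoxin-binding member, varied most among the more abundant genes. Male vehicle libraries 1, 2 and 3 held 23.1, 5.69 and 14.3 FPKM, and male dexamethasone libraries held 33.0, 4.94 and 27.0. Female vehicle libraries held 30.0, 52.8 and 10.2 FPKM, and female dexamethasone libraries 27.9, 35.7 and 10.7. Low values came from male libraries 2 and female libraries 3 under both treatments, and the highest from female libraries 2, so the treatments overlapped fully. The highest library was 10.7 times the lowest, while the treatment means were 22.7 and 23.2 FPKM. The averaged effect was 0.10 (95% interval -1.19 to 1.39, limma adjusted p = 0.959). That interval, from a fit that does not pair same-numbered libraries, spans more than a doubling in either direction. This fit alone cannot tell a change of that size from none. With library number as a block within each sex the averaged effect was again 0.10 (limma adjusted p = 0.719). The Txnip locus of the table (ENSMUSG00000038393) runs over chr3:96555765-96566801, wider than the gene in GENCODE M21 at chr3:96557957-96561883. The antisense gene Gm15441, at 0 to 0.706 FPKM, spans the whole locus, and without a stated strand setting its reads cannot be told apart from those of Txnip.

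Arrdc4, which shares with Txnip its regulation by MondoA, lies at chr7:68737045-68749241 on the minus strand (ENSMUSG00000042659). It held 10.9, 3.74 and 6.72 FPKM in male vehicle libraries and 13.8, 5.21 and 7.63 in male dexamethasone libraries. Female vehicle libraries held 10.4, 14.5 and 5.81 FPKM, and female dexamethasone libraries 12.2, 14.1 and 5.71. As for Txnip, male libraries 2 and female libraries 3 were the lowest 4, and the treatments overlapped. The averaged effect was 0.17 (95% interval -0.57 to 0.91, limma adjusted p = 0.852). With library number as a block within each sex, limma adjusted p was 0.137.

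Arrdc4 and Txnip followed each other within each treatment. Over the 6 vehicle libraries Pearson's r of log2(FPKM + 1) was 0.984 (exact permutation p = 0.00417, adjusted over 20 relations 0.0417), and Spearman's rho was 0.943 (exact permutation p = 0.0167, adjusted 0.111). Over the 6 dexamethasone libraries r was 0.888 (exact permutation p = 0.00139, adjusted 0.0278) and rho was 1.0 (exact permutation p = 0.00278, adjusted 0.0556). All 4 tests were two-sided. Without the 2 libraries farthest from the median, r was 0.95 and 0.794. None of the other 18 relations between members reached an adjusted p under 0.05 by either measure. Each treatment holds 3 libraries per sex, too few for a value within a sex. Without both libraries numbered 2, a choice made after seeing the data, r over the remaining 4 was 0.95 with vehicle and 0.85 with dexamethasone. Without the male library 2 alone it was 0.972 and 0.878, and without the female library 2 alone 0.98 and 0.867. Same-numbered libraries were low or high under both treatments, so the 2 sets may not be independent.

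Of 9750 loci ranked by likeness, Arrdc4 was 7th for Txnip and Txnip was 6th for Arrdc4, at r = 0.934. The 4 loci most like Txnip included Otx2 (0.960), 3632451O06Rik (0.959) and Fabp5 (0.951), and the 4 most like Arrdc4 included Ccs (0.971), Ccng2 (0.970) and Otx2 (0.948). Otx2, a homeodomain factor of forebrain and midbrain patterning, was on both lists. It held 2.37 and 4.07 FPKM in male libraries 2 and 6.71 and 5.15 in female libraries 3, against 10.0 to 20.1 in the other 8. The lowest 4 libraries were thus the same 4 as for Txnip and Arrdc4. Fabp5, a fatty acid binding protein, ranged from 164 to 340 FPKM. These r values run across 12 libraries whose depth is unknown and whose marker levels differ, and are given as descriptions.

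**Figure D4:**
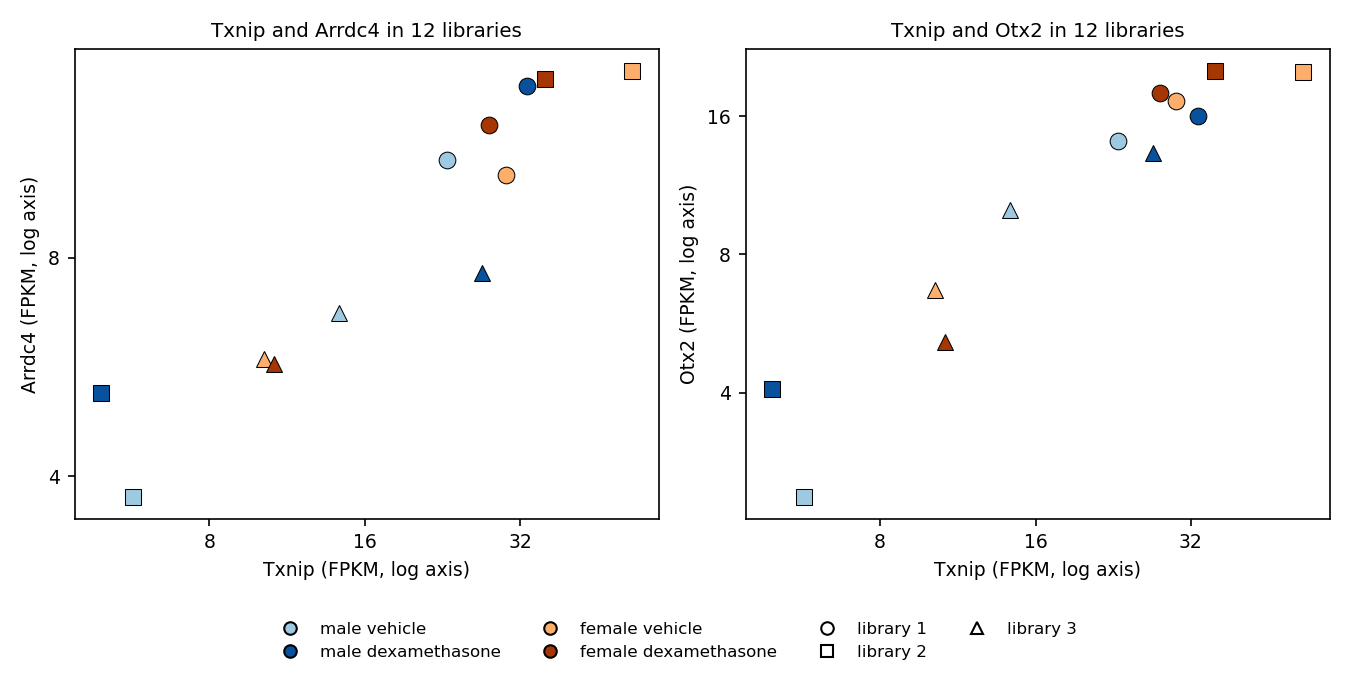
Txnip against Arrdc4 (left) and against Otx2 (right) in FPKM on log axes, 1 point per library, coloured by group and shaped by library number. Male libraries 2 and female libraries 3 take the low end of each panel, and the female libraries 2 have the highest Txnip, at 52.8 and 35.7 FPKM.

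Sox10 and Mbp, markers of the oligodendrocyte lineage, also differed between libraries. Sox10, a transcription factor of that lineage, was at 0.285 and 0.262 FPKM in male libraries 2 and 1.03 and 0.782 in female libraries 3, but also at 1.1 and 0.502 in male libraries 3, and at 3.78 to 7.56 in the other 6. Mbp, a myelin protein, was at 0.429 to 1.89 FPKM in these first 6 libraries and 2.53 to 8.98 in the other 6. The more abundant lineage markers Olig1 and Olig2 varied less, from 183 to 248 and from 116 to 150 FPKM over the 12 libraries. Pdgfra, joined with mmu-mir-7025, ranged from 2.22 to 26.8 FPKM. The 6 oligodendrocyte-lineage markers together summed to 328 to 427 FPKM. Of the 6, 1 was called in the averaged effect, Cspg4, which rose with dexamethasone (0.76, limma adjusted p = 0.0114). Upward calls were made at 1.15% of all loci. Cspg4 did not separate all of these libraries in the way of Sox10 and Mbp. Female dexamethasone library 3 held 23.1 FPKM and male dexamethasone library 3 held 23.4. Both lay between the 21.2 of female dexamethasone library 2 and the 25.2 of male dexamethasone library 1. Male dexamethasone library 2, however, was the lowest dexamethasone library for Cspg4, at 15.7 FPKM. Vehicle libraries held 10.4 to 14.4 FPKM, with 11.8 in male library 2 and 12.2 in female library 3. None of the 6 averaged under 0.1 FPKM. Male libraries 2 carried Xist and female libraries 2 held almost no Six3, as given above. The part of cell composition in the spread of Txnip and Arrdc4 was not tested.

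Arrdc3, a regulator of receptor sorting and energy balance, was the most abundant member. Its locus is chr13:80883384-80896052 on the plus strand (ENSMUSG00000074794). Male vehicle libraries 1, 2 and 3 held 43.6, 28.6 and 17.2 FPKM, and male dexamethasone libraries 46.5, 32.1 and 27.2. Female vehicle libraries held 55.8, 46.3 and 31.8 FPKM, and female dexamethasone libraries 54.5, 35.5 and 35.1. In every group library 1 was the highest and library 3 the lowest, and the treatments overlapped. The averaged effect was 0.10 (95% interval -0.44 to 0.65, limma adjusted p = 0.884). The loci most like Arrdc3 were Dynlt3 (r = 0.964), Hebp1 (0.953), Sft2d2 (0.948) and the joined locus of 1700094D03Rik and 4933434E20Rik (0.946). Dynlt3, a dynein light chain, ranged from 36.2 to 85.0 FPKM. The gene 1700023H06Rik, at 1.85 to 7.22 FPKM, lies opposite within Arrdc3, so a share of the reads is uncertain.

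Arrdc1, which recruits the ESCRT protein Tsg101 to the plasma membrane and drives release of small vesicles, was the lowest member. Its locus is chr2:24925352-24935252 on the minus strand (ENSMUSG00000026972). Male vehicle libraries held 1.17, 0.998 and 0.82 FPKM, and male dexamethasone libraries 3.47, 0.241 and 0.724. Female vehicle libraries held 1.59, 1.21 and 1.29 FPKM, and female dexamethasone libraries 1.11, 1.51 and 0.903. The highest and the lowest value of the series were both in male dexamethasone libraries. The averaged effect was -0.017 (95% interval -0.63 to 0.60, limma adjusted p = 0.989), and its sign turned in 7 of 24 alternatives. The loci most like Arrdc1 were Cog5 (r = 0.859), Brat1 (0.846), Elmod2 (0.834) and Pam16 (0.821), lower values than for the other 4 members.

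Between female and male vehicle cultures, Txnip averaged 31.0 ± 21.3 FPKM in females and 14.4 ± 8.70 in males (SD, n = 3 each). The difference was 0.97 (95% interval -0.84 to 2.79, limma adjusted p = 0.911). Arrdc3 averaged 44.6 ± 12.1 against 29.8 ± 13.2 FPKM, a difference of 0.62 (95% interval -0.14 to 1.39, adjusted p = 0.892). Arrdc4 averaged 10.2 ± 4.34 against 7.13 ± 3.61 FPKM, a difference of 0.49 (95% interval -0.56 to 1.53, adjusted p = 0.911). By limma none of the 5 members passed, adjusted or at an unadjusted p under 0.05, against 0.0737% of loci called and 4.88% at an unadjusted p under 0.05.

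The partner genes of the family showed few calls. Of 9 Nedd4-family ligase genes, which bind PPxY motifs, 8 were tested, 0 rose and 1 fell, with a median log2 difference of -0.065 against -0.0067 over all loci. Calls in the downward direction were made at 0.388% of loci. The one that fell was Smurf1, a ligase of the BMP and TGF-beta pathways, which went from 9.40 ± 0.712 to 7.02 ± 0.776 FPKM in male libraries and 10.1 ± 1.05 to 7.59 ± 0.723 in female ones (SD, n = 3 each; -0.37, limma adjusted p = 0.0475). This call was made in 7 of 25 alternatives, and of the fits leaving out 1 library only in that without male dexamethasone library 3 (adjusted p = 0.0412, up to 0.128 in the others). Nedd4 itself was the most abundant ligase at a mean of 311 FPKM, with a difference of 0.0058 (adjusted p = 0.985).

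Of 11 reported cargo genes 7 were tested, 0 rose and 1 fell, against the same 0.388% of loci lower, with a median of -0.099. Egfr, the epidermal growth factor receptor, fell from 158 ± 13.8 to 125 ± 11.7 FPKM in male libraries and 172 ± 15.4 to 132 ± 7.22 in female ones (SD, n = 3 each; -0.35, limma adjusted p = 0.045). The Egfr call was made in 11 of 25 alternatives, and of the fits leaving out 1 library only without female vehicle library 1 (adjusted p = 0.0464) or male vehicle library 1 (0.0471), with up to 0.128 in the others.

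Other lists held no call in the averaged effect. Among 14 ESCRT and vesicle release genes the median was 0.016, with 3 at an unadjusted limma p under 0.05, against 13.6% of all loci. Vps4a, the ATPase that disassembles ESCRT filaments, had a difference of 0.23 (adjusted p = 0.0822), and Tsg101, the partner of Arrdc1, of 0.028 (adjusted p = 0.844). In the thioredoxin system 12 of 13 genes were tested, with a median of 0.072 and 4 at an unadjusted limma p under 0.05, against the same 13.6%. Txn1, the thioredoxin that Txnip binds, averaged 762 FPKM and had a difference of 0.039 (adjusted p = 0.944). Among 11 tested genes of MondoA-Mlx and glucose uptake the median was -0.091, with 1 at an unadjusted limma p under 0.05, again against 13.6% of loci. Mlx, the partner of MondoA, averaged 63.0 FPKM (0.17, adjusted p = 0.306), and Slc2a1, the glucose transporter GLUT1, averaged 15.3 FPKM (-0.0015, adjusted p = 1.0). Of 7 other tested genes with an arrestin fold the median was -0.018 and 0 had an unadjusted limma p under 0.05. Arrb2, beta-arrestin 2, stands joined with mmu-mir-7115 and was at 147 FPKM in male dexamethasone library 2 against 16.2 to 27.3 elsewhere.

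For scale, 5 of 6 reference genes of the glucocorticoid response rose in each of the averaged, male and female effects, with a median of 2.21 in the averaged effect. These genes were chosen as known responders, so their direction is not independent evidence. Fkbp5, a co-chaperone of the receptor, had a difference of 2.42 (SE 0.14, limma adjusted p = 1.98e-05), and Klf9, a glucocorticoid-induced transcription factor, of 2.00 (SE 0.072, limma adjusted p = 4.44e-07). Nr3c1, the receptor gene, averaged 18.5 and 15.6 FPKM in male vehicle and dexamethasone libraries and 20.3 and 18.1 in female ones (-0.20, adjusted p = 0.375). The Arrdc2 difference of 0.96 lay below that of all 5 responders that rose, the smallest of which was 1.91 for Per1.

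**Figure D5:**
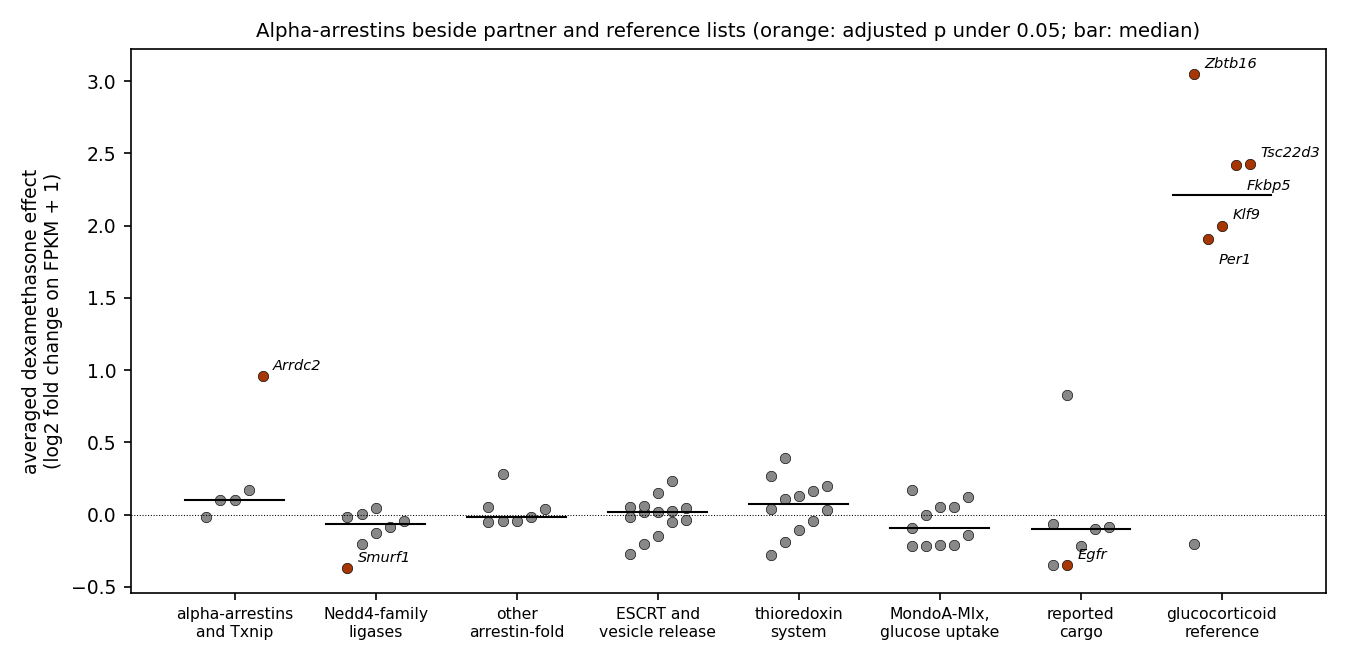
Averaged dexamethasone effect, as log2 fold change on FPKM + 1, of the 5 alpha-arrestin genes and of the tested genes in 7 partner and reference lists, 1 point per gene. Orange points have a limma adjusted p under 0.05 and bars are medians. Arrdc2 at 0.96 stands above the other members, Smurf1 and Egfr are the lower calls, and 5 glucocorticoid reference genes lie between 1.91 and 3.05.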

How the data were processed

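The authors deposited FPKM values for 40597 loci in 1 column per library. GRCm38 is the build, and Cuffdiff 2.2.1, Cufflinks 2.2.1 and TopHat2 2.0.9 the tools, per the submitters' processing notes. Annotation release, strand setting and scaling were not given in the sources used here. Loci averaging at least 1 FPKM (14931) were converted to log2(FPKM + 1), and limma 3.58.1 (R 4.3.3) was run on them (1 mean per group over 12 libraries, eBayes with trend, two-sided, Benjamini-Hochberg adjustment over all loci, calls at 0.05). The code was tested on simulated data. FPKM carry no counts, so depth is unknown. Labels call the libraries biological replicates without naming cultures or litters, so p-values measure the spread between these samples. No 2 libraries were identical. Members and lists were chosen with earlier results of these data known. Named genes were the members, every called gene of a list, up to 4 abundant genes of a list otherwise, and the 4 loci most like each member. Some genes that this rule covers are not reported here. Promoters came from RefSeq on GRCm38.p6 and gene annotation from GENCODE M21. Alternatives changed the pseudocount, filter, scaling, weights, replicate block and libraries.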

Additional observations from a re-analysis of the deposited data

How the results depend on the processing

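The averaged Arrdc2 call was made in all 24 alternatives that tested it. With a mean of at least 5 FPKM the gene was not tested, so 0 members were called averaged and in females. In females 0 members were also called with no filter, with median ratio scaling, with only the libraries of that sex, without both male libraries numbered 2 and without both female libraries numbered 2, and 0 to 1 when 1 library was left out. The 3 fits that leave out 2 libraries were chosen after seeing the data. Fewer libraries entered these fits, and the cause of the other lost calls was not tested.

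Called loci numbered 229 averaged, 47 in males, 72 in females, 5 for the interaction and 11 for sex in vehicle. With a replicate block within each sex the first 4 counts were 804, 148, 187 and 8, and the averaged calls were 420 higher and 384 lower against 171 and 58. Same-numbered libraries correlated at 0.0819 to 0.167 in their deviations, not all above 0.1, and each correlated best with its own number, a hint from the data and not the design. The block changed no member's call (Arrdc2 averaged adjusted p = 0.014, limma). Averaged limma adjusted p with the block was 0.137 for Arrdc4 against 0.852 in the main fit, and 0.557 for Arrdc3 against 0.884. It was 0.719 for Txnip against 0.959, and 0.976 for Arrdc1 against 0.989. Without both male libraries numbered 2 the counts were 104 averaged, 14 in males and 9 for the interaction. Without both female libraries numbered 2 they were 135 averaged, 42 in females, 13 for the interaction and 18 for sex. Without male vehicle library 3 and male dexamethasone library 2 they were 114, 19 in males and 8 for the interaction. Array weights gave 95 in males, only the libraries of that sex gave 18 in males and 33 in females, and protein-coding loci alone gave 1 for the interaction and 5 for sex. Leaving out 1 library gave 146 to 215 averaged, 28 to 49 in males, 31 to 74 in females, 4 to 14 for the interaction and 9 to 23 for sex.

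Some effects that no fit called changed sign, while others, such as averaged Arrdc4, kept theirs in 25 of 25 alternatives. Averaged, Arrdc1 was 0.18 without both male libraries numbered 2, and 0.14 without male vehicle library 3 and male dexamethasone library 2, where Arrdc3 was -0.039. With 1 library left out, averaged Arrdc1 ran from -0.29 to 0.18, Arrdc3 from -0.064 to 0.26 and Txnip from -0.21 to 0.50. In males Arrdc1 was -0.12 with a pseudocount of 0.1 and -0.25 with array weights. With 1 library left out, male Arrdc1 ran from -0.45 to 0.48, Arrdc3 from -0.038 to 0.61, Arrdc4 from -0.051 to 0.61 and Txnip from -0.11 to 1.19. In females array weights gave 0.01 for Arrdc3 and 0.083 for Txnip, and Arrdc3 was 0.052 without both female libraries numbered 2. With 1 library left out, female Arrdc3 ran from -0.31 to 0.086, Arrdc4 from -0.27 to 0.41 and Txnip from -0.82 to 0.31. For the interaction Arrdc1 was 0.12 with array weights, and with 1 library left out Arrdc1 ran from -0.60 to 0.32 and Arrdc4 from -0.56 to 0.13. For sex in vehicle Arrdc2 was -0.041 with quantile normalization, -0.034 without both female libraries numbered 2 and -0.034 to 0.14 with 1 library left out.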
